A study of Mus musculus with 71 samples.

Results

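A set of 7 array probes, of 25697 on the array, were called higher in Csb than in wild-type (WT) cerebellum on each of 4 diets in an earlier fit, and these probes are described here over all 16 groups of the study. A refit of the same 42 diet arrays called the same 7 probes and no others, which is 0.047% of the 14883 probes tested there. The array annotation gave each of the 7 probes 1 gene symbol. The probes were ILMN_2653132 (Clec7a, chromosome 6), ILMN_2675811 (Slc11a1, chromosome 1), ILMN_3049559 (C4b, chromosome 17), ILMN_2626294 (Pam, chromosome 1), ILMN_2436489 (Vapb, chromosome 2), ILMN_2788073 (Hmox1, chromosome 8) and ILMN_2913980 (Fn3krp, chromosome 11). The probe nearest to the threshold inside the set was Vapb, whose highest of 4 adjusted p-values was 0.0466 on the standard diet, where it differed by 0.46 (log2). The nearest probe outside it was ILMN_2672380 (Arhgap22), with 0.0502 and a difference of 0.64 on the same diet.

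The mice were male C57BL/6, either WT or Csbm/m (written Csb), which carry a mutation on both copies of the gene for CSB. CSB, encoded by Ercc6, is a protein of transcription-coupled DNA repair, and its loss causes Cockayne syndrome in people. The kind of mutation is not given in the sources used here. RNA of the cerebellum was read on 71 one-colour Illumina bead arrays. In the diet arm, mice were 1 year old after 8 months on a standard AIN-93G diet (6 Csb and 4 WT arrays), a high-fat diet with 60% of calories from fat (7 Csb and 4 WT), 40% caloric restriction of the standard diet (6 Csb and 4 WT), or the standard diet with 100 mg resveratrol per kg of chow (6 Csb and 5 WT). In the injection arm, mice of 4 months (young) or 18 months (old) on house chow received daily intraperitoneal saline or nicotinamide riboside (NR, a precursor of NAD+, 500 mg per kg per day) for 1 week. The young saline groups held 3 Csb and 4 WT arrays, the young NR groups 3 and 4, the old saline groups 3 and 3, and the old NR groups 4 and 5. Nothing in the labels ties each array to its own mouse, and the p-values therefore cover array-to-array spread that may be technical in part.

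By function the 7 genes fall into a myeloid and complement set and a set of single-gene roles. Clec7a encodes Dectin-1, a pattern recognition receptor for beta-glucans on macrophages, dendritic cells and activated microglia. Slc11a1 encodes a divalent metal transporter of the phagosome membrane of macrophages. C4b encodes complement component 4B, a secreted protein of the classical pathway that in brain is made by glia. Its near-identical neighbour C4a could share signal with it, so the C4b value is uncertain in that respect. In brain, microglia are the resident phagocytes, and complement tags material for their uptake. Pam encodes the enzyme that amidates the C-terminus of neuropeptides, and Vapb a membrane protein of the endoplasmic reticulum that tethers it to other organelles. Hmox1 encodes heme oxygenase 1, which degrades heme and is induced by oxidative stress. Fn3krp encodes a kinase that phosphorylates ketosamines, sugar adducts on glycated proteins.

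Upstream sequence is shown for Clec7a and Fn3krp, because their probes ranged from not detected to well detected between arrays. The RefSeq promoter table (build GRCm38.p6) held 5 of the 7 genes. Each line gives the 250 bases before an annotated start, 5′ to 3′ on the gene's strand, and capitals mark GAGGAA, the core letters bound by PU.1, a transcription factor of myeloid cells. The Clec7a window is chr6:129472786-129473035 on the minus strand and the Fn3krp window chr11:121421123-121421372 on the plus strand.
Clec7a: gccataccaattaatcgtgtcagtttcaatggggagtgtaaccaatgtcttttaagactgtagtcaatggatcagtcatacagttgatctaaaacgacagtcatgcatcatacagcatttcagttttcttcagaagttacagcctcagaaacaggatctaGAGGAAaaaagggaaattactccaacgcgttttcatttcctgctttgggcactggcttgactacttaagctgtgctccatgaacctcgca
Fn3krp: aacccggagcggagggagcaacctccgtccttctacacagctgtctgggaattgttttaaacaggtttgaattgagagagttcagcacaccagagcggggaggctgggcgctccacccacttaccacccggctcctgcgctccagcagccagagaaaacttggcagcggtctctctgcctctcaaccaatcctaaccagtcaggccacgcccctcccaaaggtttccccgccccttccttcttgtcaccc
The motif was searched on both strands. Clec7a held 1 match, whose first base lies at -90 from the start, and Fn3krp held none. Over all 32851 windows of this length in the table, 23.3% held the motif too. A match is a description of letters and does not show a bound site.

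Levels below are log2 normalized intensities, and a probe counts as detected on an array at a detection p under 0.01. Between 46.3% and 58.0% of probes were detected per array. The mean background level of the Csb diet groups (76.2 to 87.6 intensity units) was above that of the WT diet groups (63.2 to 73.5), while in the injection arm the Csb groups (62.1 to 70.4) and the WT groups (63.9 to 66.8) overlapped. Of the granule cell markers fixed for the tissue, 4 of 5 passed the detection filter in the diet arm, and of the Purkinje cell markers 1 (Pcp2) of 2 with a probe. Calb1, a defining Purkinje gene, did not pass. No probe is annotated to Ercc6, so the mutated gene was not analysed here. Some arrays stood apart. In the diet arm Pcp2 read 6.14 on WT standard diet replicate 1, 7.68 on Csb caloric restriction replicate 6, and 9.01 and 8.76 on Csb standard diet replicates 1 and 3, while the other 38 diet arrays lay between 12.42 and 14.46. Linear granule marker sums reached down to 2362, 1142 and 1481 in those 3 groups and lay from 9648 to 22795 in the other diet groups. The standard diet and restriction values of the 7 probes are therefore also given without these 4 arrays, an alternative chosen after seeing the data. In the injection arm, young Csb NR replicate 2 lay at or near the levels of young WT arrays for Clec7a (4.65), C4b (7.72) and Slc11a1 (9.49), and was not detected for Pam (5.76). On the same array the probe ILMN_2693858 (Tmem254a), singled out after its values were seen, read 8.22, below every WT array (8.74 to 10.17) and above the other Csb arrays (7.25 to 7.96). Whether the label of this array matches its RNA was not tested. Results that rest on it are given with and without it.

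On every diet, the 3 myeloid and complement probes were higher in Csb. These values chose the probes, so they are given as a description with no test. Clec7a on the standard diet read 5.40, 5.51, 6.11 and 5.88 on the 4 WT arrays, of which 2 detected it, against a lowest of 6.80, a median of 7.08 and a highest of 7.58 on the 6 Csb arrays. The difference was 1.40 ± 0.22 (SE, log2), or 2.64-fold. Under the high-fat diet WT read 5.53, 5.91, 5.86 and 5.73, and Csb from 7.13 through 7.83 to 8.03, a difference of 1.97 ± 0.22. Under caloric restriction no WT array detected Clec7a (5.67, 4.97, 5.68 and 5.29), and Csb ran from 5.78 through 6.71 to 6.92, at least 1.37-fold higher. With resveratrol WT read 5.92, 6.02, 6.10, 6.70 and 5.57, and Csb from 7.32 through 7.81 to 8.52, a difference of 1.77 ± 0.21. The genotypes did not overlap for this Clec7a probe on any diet.

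Slc11a1 was detected on all 42 diet arrays. On the standard diet WT read 10.04, 10.35, 10.47 and 10.40 and Csb 10.73 to 11.08 with a median of 10.98, a difference of 0.64 ± 0.10. The difference was 0.77 ± 0.10 under the high-fat diet, 0.53 ± 0.10 under restriction and 0.77 ± 0.09 with resveratrol. Every Csb array lay above every WT array of its diet. C4b, also detected throughout, read 9.14, 8.99, 8.78 and 9.51 in WT on the standard diet and 10.05 to 10.48, with a median of 10.15, in Csb. Its differences were 1.11 ± 0.18, 0.81 ± 0.18, 0.99 ± 0.18 and 0.70 ± 0.17 in the diet order used above. With resveratrol 5 of the 6 Csb arrays lay above all WT arrays, and 1 (9.42) fell among them.

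Pam differed by 0.91 ± 0.25 on the standard diet, 1.08 ± 0.24 under the high-fat diet, 1.22 ± 0.25 under restriction and 1.37 ± 0.23 with resveratrol. Its Csb means were nearly level across diets (9.25 to 9.33), and its WT means ran from 7.88 with resveratrol to 8.33 on the standard diet. Vapb showed the smallest difference of the 7 on the standard diet (0.46 ± 0.16) and reached 0.75 ± 0.15 with resveratrol. Hmox1 was dim, detected on 8 of 25 Csb arrays and 0 of 17 WT arrays. Its bounds were at least 1.30-fold on the standard diet, 1.04-fold under the high-fat diet and 1.32-fold with resveratrol, and under restriction no bound above 1 could be set. Over the 7 probes, every Csb array lay above every WT array for 6 on the standard diet, 4 under the high-fat diet, 7 under restriction and 6 with resveratrol. The share of all tested probes with that pattern was 3.97%, 3.96%, 1.88% and 4.12% in the same order. The share called higher was 6.55%, 4.95%, 0.128% and 9.43%, and the rule drew the members from those calls.

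Without the 4 arrays low in Pcp2, which left 4 Csb and 3 WT arrays on the standard diet and 5 and 4 under restriction, each of the 7 differences kept its direction. The arrays left also served to choose the probes, so these values are a description and give no separate support. Vapb on the standard diet moved most in proportion, from 0.46 to 0.30 ± 0.18. On that diet Clec7a differed by 1.15 ± 0.24, Hmox1 by 0.90 ± 0.23, Pam by 0.81 ± 0.28, Slc11a1 by 0.59 ± 0.11, C4b by 1.12 ± 0.22 and Fn3krp by 1.9 ± 0.61. Under restriction the 7 ran from 0.54 ± 0.10 (Slc11a1) to 2.50 ± 0.53 (Fn3krp), with Clec7a at 1.33 ± 0.21. Every Csb array left lay above every WT array left for 6 members on the standard diet and 7 under restriction, beside 11.8% and 2.17% of all probes.

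**Figure D1:**
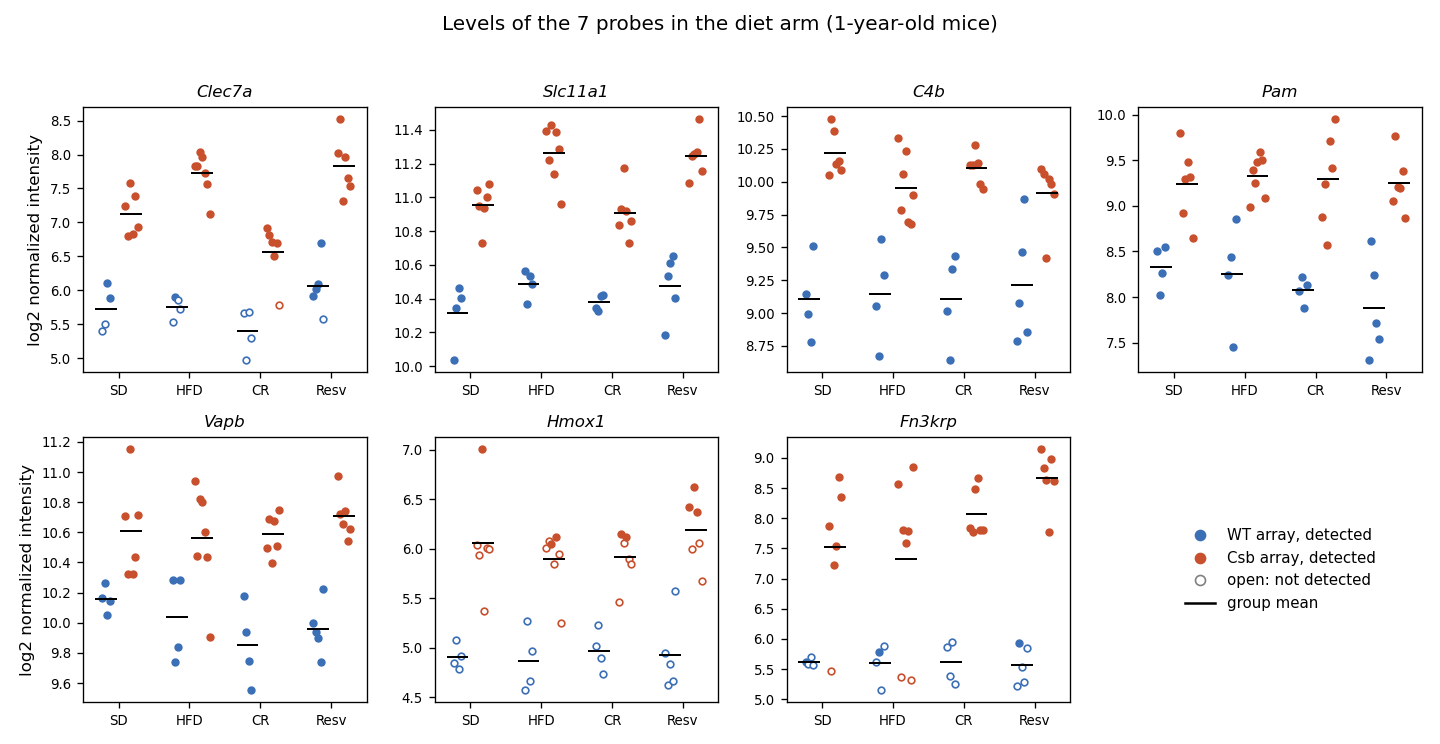
Level of each of the 7 probes (log2 normalized intensity, vertical axis) on every diet array, by diet (SD standard, HFD high-fat, CR caloric restriction, Resv resveratrol) and genotype; bars are group means and open circles arrays where the probe was not detected. Csb arrays sit above WT arrays in nearly all panels, and Fn3krp Csb arrays split into a high set and 3 low arrays.

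Fn3krp differed unevenly between Csb arrays. All 17 WT diet arrays lay between 5.15 and 5.95, and 3 of them detected the probe. On the standard diet the 6 Csb arrays read 7.88, 5.46, 7.22, 7.55, 8.69 and 8.35, and under the high-fat diet the 7 read 8.56, 5.36, 7.80, 7.59, 7.79, 5.31 and 8.85. Thus 1 and 2 Csb arrays stood at the WT level on those diets. Under restriction Csb ran from 7.78 to 8.67 and with resveratrol from 7.77 to 9.14, with no overlap with WT. Differences were 1.91 ± 0.49 (standard), 1.72 ± 0.48 (high-fat) and 3.10 ± 0.46 (resveratrol). Under restriction, where no WT array detected it, the level was at least 3.85-fold higher.

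Clec7a levels also differed between diets within Csb. These contrasts use the arrays that chose the probes, so they are values with no test. Clec7a in Csb was lowest under restriction (6.57 ± 0.41, SD, n = 6), then standard diet (7.13 ± 0.32, n = 6), high-fat diet (7.73 ± 0.31, n = 7) and resveratrol (7.84 ± 0.43, n = 6), and the last 2 differed by less than their SDs. Relative to the standard diet these were -0.56 ± 0.20, 0.60 ± 0.19 and 0.71 ± 0.20 (SE). Without the arrays low in Pcp2 the restriction and standard diet means were closer, at 6.73 ± 0.16 (SD, n = 5) and 6.98 ± 0.28 (n = 4). The WT means ran from 5.40 under restriction to 6.06 with resveratrol, and each WT diet group overlapped the WT standard diet group. The Slc11a1 member probe in Csb was 0.30 ± 0.09 higher under the high-fat diet and 0.29 ± 0.09 higher with resveratrol than on the standard diet. Another Slc11a1 probe, ILMN_2983516, was lower on those diets, with Csb means of 7.43 and 7.45 against 7.66 on the standard diet. A dimmer one, ILMN_2674884, was higher, at 6.02 and 6.17 against 5.78. Fn3krp in Csb was 1.14 ± 0.44 higher with resveratrol. C4b moved the other way, -0.26 ± 0.16 and -0.30 ± 0.16 under the high-fat diet and resveratrol. Pam, Vapb and Hmox1 in Csb differed from the standard diet by no more than 0.16 on any diet, under their SEs of 0.14 to 0.22.

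The injection arm holds samples that the choice of probes did not use, so the genotype difference was tested there. Averaged over the 4 strata (young or old, saline or NR), 3 of the 7 probes were higher in Csb, and they were the myeloid and complement set. The background was 0.954%, that is 133 of 13948 probes called higher by limma at an adjusted p under 0.05, and 0.165% were called lower. At an unadjusted p under 0.05, 4 members were higher, beside 4.96% of all probes. Clec7a rose by 1.42 ± 0.21 (log2, adjusted p = 0.000217), C4b by 1.21 ± 0.19 (adjusted p = 0.000421) and Slc11a1 by 0.55 ± 0.09 (adjusted p = 0.000509). The Clec7a value was 0.87 with no background correction (limma adjusted p = 0.000183) and 0.85 with the authors' values (limma adjusted p = 0.000267). Pam differed by 0.72 ± 0.19 with an adjusted p of 0.0697. Vapb (0.20, 95% interval -0.15 to 0.55), Hmox1 (0.25, -0.07 to 0.58) and Fn3krp (-0.12, -0.67 to 0.43) did not pass. The median over the 7 was 0.55, beside -0.01 over all probes tested. Without young Csb NR replicate 2, limma called 4 members: Clec7a 1.58 (adjusted p = 2.44e-06), C4b 1.41 (adjusted p = 1.99e-08), Slc11a1 0.61 (adjusted p = 2.47e-05) and Pam 0.83 (adjusted p = 0.0112).

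**Figure D2:**
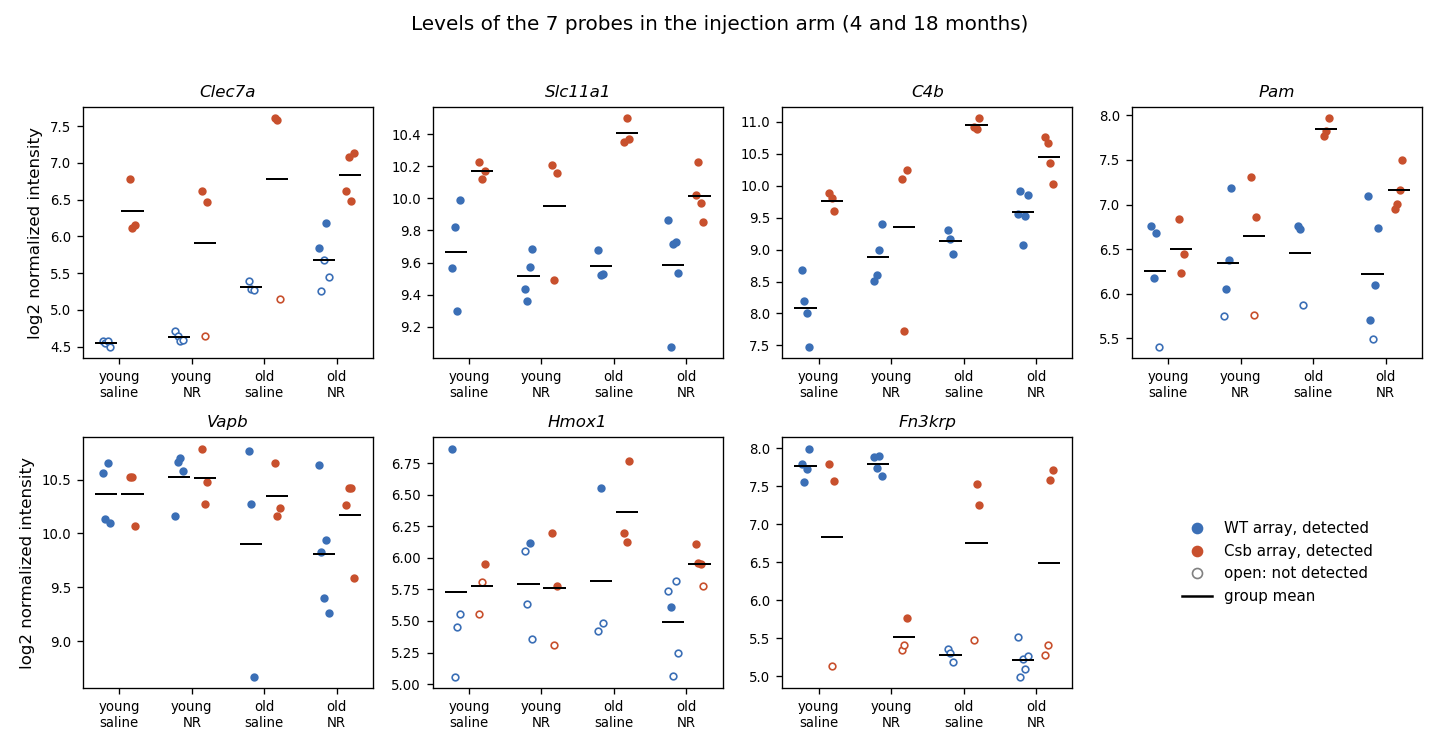
Level of each of the 7 probes (log2 normalized intensity) on every injection array, by age and injection and by genotype; bars are group means and open circles arrays where the probe was not detected. The Csb group means of Clec7a, Slc11a1 and C4b lie above the WT means in each stratum, with single Csb arrays among or below the WT arrays, and Fn3krp is high on all 8 young WT arrays and low on all 8 old WT arrays.

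Clec7a was detected on 11 of 13 Csb arrays and 2 of 16 WT arrays of this arm. In young saline mice Csb read 6.78, 6.11 and 6.15 and WT 4.58, 4.56, 4.58 and 4.5, none of the WT arrays detecting it, which is at least 1.35-fold. In young NR mice Csb read 6.62, 4.65 and 6.47 and WT 4.71, 4.64, 4.57 and 4.60. The 4.65 is the array described above, and the other two lay clear of WT. In old saline mice Csb read 7.61, 7.59 and 5.15 against WT at 5.39, 5.29 and 5.27, none detected, which is at least 1.94-fold between the means. The 95% interval of this log2 difference ran from 0.54 to 2.39. Here 1 Csb array fell below all WT arrays, and the same array was not low in Slc11a1 (10.37) or C4b (11.05). In old NR mice Csb read 6.62, 7.08, 6.48 and 7.14 and WT 5.84, 5.26, 5.67, 6.19 and 5.44, with no overlap.

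C4b in young saline mice read 9.88, 9.81 and 9.61 in Csb and 8.68, 8.19, 8.01 and 7.48 in WT. In young NR mice Csb read 10.10, 7.72 and 10.24 and WT 8.51, 8.61, 9.0 and 9.40, so the groups overlapped through 1 array. In old saline mice Csb read 10.92, 10.88 and 11.05 and WT 9.30, 9.17 and 8.93, the widest C4b difference of the 4 strata (1.82 ± 0.41). In old NR mice Csb read 10.77, 10.67, 10.36 and 10.02 and WT 9.57, 9.91, 9.07, 9.53 and 9.85, with no overlap and a difference of 0.87 ± 0.34.

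Slc11a1 showed a narrower difference. After saline young Csb read 10.23, 10.12 and 10.17 and young WT 9.57, 9.82, 9.30 and 9.99. After NR young Csb read 10.21, 9.49 and 10.16 and young WT 9.44, 9.36, 9.57 and 9.69. Again 1 Csb array fell among WT. Old Csb read 10.35, 10.50 and 10.37 after saline and 10.02, 10.22, 9.97 and 9.85 after NR, against 9.68, 9.52 and 9.53, and 9.87, 9.07, 9.72, 9.73 and 9.54 in WT. The old saline groups did not overlap, and in the old NR groups the lowest Csb array (9.85) lay just under the highest WT array (9.87).

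Taken stratum by stratum, limma called none of the 7 probes at an adjusted p under 0.05, where the shares of all probes called higher were 0.0287% in young saline, 0% in young NR, 0.201% in old saline and 0.0143% in old NR mice. At an unadjusted p under 0.05, 3, 2, 5 and 5 members were higher, beside 1.75%, 1.7%, 5.15% and 8.14% of all probes, and 1 (Fn3krp, young NR) was lower, beside 1.66%. Clec7a, Slc11a1, C4b and Pam, 4 of the 7, differed upward in all 4 strata, which 6.81% of all probes did. Every Csb array lay above every WT array for 3, 0, 4 and 2 members, beside 2.72%, 2.25%, 6.6% and 1.38% of all probes. Without young Csb NR replicate 2, which also enters the common estimate of spread, limma called Clec7a (adjusted p = 0.0168) and C4b (adjusted p = 0.000363) in young saline, Clec7a (adjusted p = 0.0359) and C4b (adjusted p = 0.0342) in young NR, and Slc11a1 (adjusted p = 0.0176) and C4b (adjusted p = 0.000255) in old saline mice.

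For Pam, Vapb and Hmox1 the genotype-by-age difference was not called by limma (adjusted p = 0.542, 0.693 and 0.614). Pam in old saline mice read 7.77, 7.82 and 7.97 in Csb and 6.76, 6.72 and 5.87 in WT, a difference of 1.40 ± 0.41 with no overlap. In young mice it differed by 0.25 ± 0.39 after saline and 0.30 ± 0.39 after NR, and the groups overlapped. Without young Csb NR replicate 2 the young NR difference was 0.75 ± 0.40, and the genotype-by-age difference was 0.67 ± 0.37 (limma adjusted p = 0.684) in place of 0.89 ± 0.38. Vapb differed by 0.01 ± 0.34 and -0.01 ± 0.34 in young mice and by 0.45 ± 0.36 and 0.36 ± 0.30 in old mice, with overlap in each. One old WT saline array (8.67) lay far below the other two (10.77 and 10.27). Without that array the old saline difference of Vapb turned to -0.17, and without old WT saline replicate 1 it was 0.88. Hmox1 differed by 0.04 and -0.03 in young mice and by 0.54 and 0.45 in old mice, with SEs of 0.28 to 0.34. With array weights its old saline difference was -0.03 ± 0.29. It was detected on 9 of 13 Csb and 4 of 16 WT arrays.

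**Figure D3:**
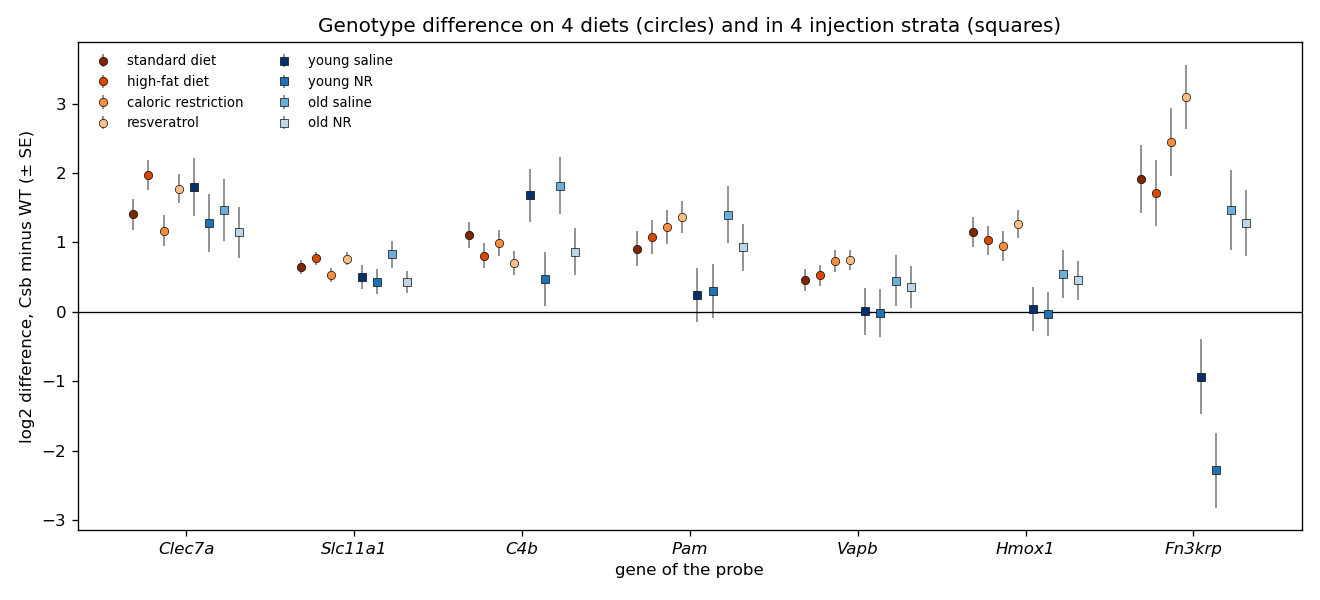
Log2 difference between Csb and WT (vertical axis, ± SE) for each probe on the 4 diets (circles) and in the 4 injection strata (squares). Clec7a, Slc11a1, C4b and Pam stay above 0 in all 8 settings, Vapb and Hmox1 lie near 0 in young mice, and Fn3krp falls to -2.28 in young NR mice.

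One of the microglia markers, C1qa, was called higher in Csb beside the myeloid set. Of the 4 fixed microglia genes, Aif1, Cx3cr1 and C1qa were measured in both arms, and Csf1r has no annotated probe. In the injection arm 1 of the 3 was higher in Csb over the strata, C1qa (0.93, limma adjusted p = 0.00107), while Aif1 differed by 0.49 (limma adjusted p = 0.491) and Cx3cr1 by 0.12 (limma adjusted p = 0.885). On the diets 2, 3, 0 and 2 of the 3 were higher in Csb, in the same diet order (limma). The summed linear level of the 3 ran from 1394 to 2218 on Csb diet arrays and from 768 to 1830 on WT diet arrays, and from 564 to 1872 and 551 to 1302 in the injection arm. Of the 4 astrocyte and Bergmann glia genes, Gfap was higher (0.71, limma adjusted p = 0.0129) and Gdf10 lower (-0.70, limma adjusted p = 0.00673) over the injection strata. On the diets 0, 2, 0 and 2 of these 4 were higher in Csb (limma). Gfap differed by 0.81 under the high-fat diet (limma adjusted p = 0.0480) and 0.95 with resveratrol (limma adjusted p = 0.00852), and Aqp4 by 0.70 (limma adjusted p = 0.0256) and 0.76 (limma adjusted p = 0.00670). The part of these cell types in the differences of Clec7a, Slc11a1 and C4b was not tested. In whole cerebellum, more cells of a type and more RNA per cell cannot be told apart. No gene of the Purkinje cell, granule cell, oligodendrocyte, choroid plexus, blood or repair lists was called by genotype over the strata (limma), with 1, 3, 3, 4, 2 and 4 genes tested. On single diets limma called 4 genes of those lists: Clic6 (-1.29, adjusted p = 0.0439) and Ercc8 (-0.45, adjusted p = 0.00745) on the standard diet, and Ercc3 (-0.34, adjusted p = 0.0330) and Mog (0.59, adjusted p = 0.0340) with resveratrol. The diet calls of all these lists include the arrays low in Pcp2 and were not refitted without them. Summed choroid plexus levels swung from 601 to 38794 on Csb and from 2773 to 37627 on WT standard diet arrays. They also reached down to 1235 in Csb high-fat, 3000 in Csb restriction, 551 in young WT saline and 1019 in old WT saline groups. The part of this swing in the Clic6 difference was not tested.

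With age 3 of the 7 probes differed, over both genotypes and both injections. The sample names number all young arrays before all old ones. Age therefore cannot be told apart from any handling that followed this order. C4b was higher in old mice by 1.01 ± 0.19 (adjusted p = 0.000478) and Clec7a by 0.79 ± 0.21 (adjusted p = 0.00773), and Fn3krp was lower, at -1.04 ± 0.27 (adjusted p = 0.00664, limma). Of all probes 12.2% were called higher and 11% lower with age, so 2 and 1 of 7 are near that background. Pam (0.48, limma adjusted p = 0.0674), Vapb (-0.38, limma adjusted p = 0.100), Hmox1 (0.14, limma adjusted p = 0.543) and Slc11a1 (0.07, limma adjusted p = 0.595) did not pass. Young arrays were brighter at their highest probe (group means 37670 to 40932) than old ones (32943 to 35643). With that brightness as a covariate limma called none of the 3 (C4b 0.87, adjusted p = 0.194; Fn3krp -1.13, adjusted p = 0.237; Clec7a 0.61, adjusted p = 0.452), and with background level as a covariate Clec7a was not called (adjusted p = 0.0785). Without young Csb NR replicate 2 the age differences were 0.80 ± 0.12 for C4b (limma adjusted p = 9.79e-05), 0.63 ± 0.18 for Clec7a (limma adjusted p = 0.0178) and -1.05 ± 0.28 for Fn3krp (limma adjusted p = 0.0112).

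NR moved none of the 7 over genotype and age (limma), with 4 probes, 0.0287% of all, called. At an unadjusted p under 0.05, 1 member was lower, Slc11a1 at -0.19 ± 0.09, beside 1.12% of all probes. The genotype-by-NR difference passed for none of the 7 and for 2 probes in all (0.0143%, limma). C4b had the lowest unadjusted p of the members there (0.00849 by limma, 1 member lower at an unadjusted p under 0.05 beside 2.9% of all probes), with -1.08 ± 0.38. In WT its mean was higher after NR than after saline in both ages (8.09 ± 0.50 and 8.88 ± 0.41 in young, 9.13 ± 0.19 and 9.59 ± 0.34 in old mice, SD), and in Csb lower (9.77 ± 0.14 and 9.35 ± 1.42, 10.95 ± 0.09 and 10.45 ± 0.34). Without young Csb NR replicate 2 the genotype-by-NR difference of C4b was -0.67 ± 0.24 (limma adjusted p = 0.990). The lower mean of young Csb after NR rests on that array (7.72). The other young Csb NR arrays read 10.10 and 10.24, above the highest young Csb saline array (9.88).

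Fn3krp fell into a high and a low set of arrays. Between the sets no array lay from 5.95 to 7.22 in the diet arm or from 5.77 to 7.26 in the injection arm. The high set held 8 of 8 young WT arrays, 0 of 17 WT diet arrays and 0 of 8 old WT arrays. In Csb it held 2 of 6 young arrays and 22 of 25 diet arrays. Of the 7 old Csb arrays it held those at 7.26, 7.53, 7.58 and 7.72. In young saline mice WT read 7.79, 7.56, 7.72 and 8.00 and Csb 7.79, 5.14 and 7.57. Young NR mice read 7.88, 7.74, 7.90 and 7.64 in WT and 5.34, 5.41 and 5.77 in Csb. Old WT mice read 5.36, 5.30 and 5.18 after saline and 5.51, 4.99, 5.22, 5.09 and 5.27 after NR, with no array detecting the probe, while old Csb mice read 5.47, 7.53 and 7.26, and 5.28, 5.41, 7.58 and 7.72. Between the diet and injection arms, age, feeding and arm cannot be told apart.

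The genotype difference of Fn3krp had opposite signs in young and old mice. It was -0.94 ± 0.54 and -2.28 ± 0.54 in young saline and young NR mice and 1.47 ± 0.58 and 1.28 ± 0.47 in old saline and old NR mice. Since no old WT array detected it, the old means stand for at least 1.9-fold and 1.62-fold. These bounds allow for detection only. The 95% intervals of the old log2 differences ran from 0.29 to 2.66 after saline and from 0.30 to 2.25 after NR. The genotype-by-age difference of 2.98 ± 0.53 passed (adjusted p = 0.0204, limma), 1 of 5 probes called in that contrast (0.0358% of all). Here too, age cannot be told apart from any handling that followed the order of the sample numbers. The direction held in all alternatives, but the call did not: the adjusted p by limma was 0.106 with no filter on dim probes, 0.0673 with the replicate number as a block, 0.177 with background level as a covariate, and 0.0532 (2.96) without young Csb NR replicate 2. It was also lost without old Csb saline replicate 2 (0.0767) or 3 (0.0759), old WT saline replicate 3 (0.0512) or young Csb NR replicate 1 (0.0579), all limma. The replicate numbers follow the text order of the sample names, so the block stands for no known pairing or batch. In a group that holds arrays of both sets, the mean and SE describe that mix.

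**Figure D4:**
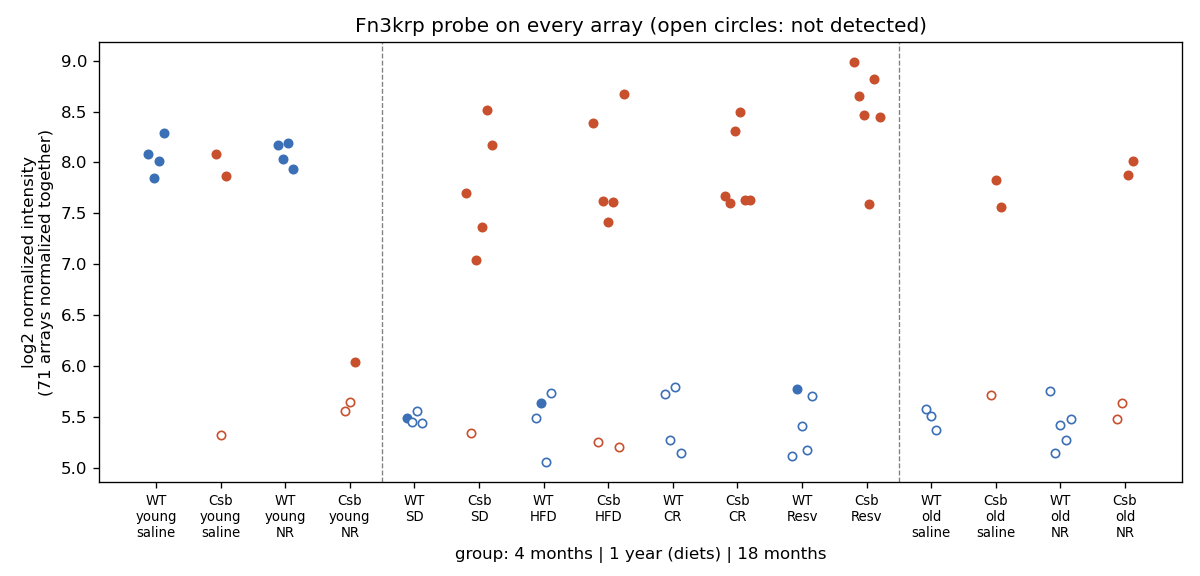
Fn3krp probe on each of the 71 arrays (log2 normalized intensity, arrays of both arms normalized together), grouped from 4 months on the left through the 1-year diet groups to 18 months on the right; open circles were not detected. WT arrays are high at 4 months and low at 1 year and 18 months, while Csb arrays occur in both sets at every age.

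Other probes annotated to the same genes were read beside the members. Clec7a had 3 other probes, of which 2 were measured in the injection arm. Both were higher in Csb, ILMN_1239843 by 1.63 ± 0.23 (adjusted p = 0.000111) and ILMN_2663258 by 1.5 ± 0.25 (adjusted p = 0.000865, limma). ILMN_1239843 was also called within young saline mice (2.46 ± 0.46, at least 2.63-fold, limma adjusted p = 0.0281). In old saline mice ILMN_1239843 differed by 1.12 ± 0.49 and ILMN_2663258 by 1.03 ± 0.54, with overlap (limma adjusted p = 0.364 and 0.443). There 3 and 2 of the 3 WT arrays detected them. In the diet order used above, ILMN_2663258 differed between genotypes by 1.66 ± 0.17, 2.08 ± 0.17, 0.55 ± 0.17 and 1.81 ± 0.16. Its groups did not overlap, and only with resveratrol did WT detect it (otherwise at least 1.98-, 2.07- and 1.14-fold). ILMN_1239843 differed by 1.08 ± 0.22, 1.44 ± 0.21, 0.73 ± 0.22 and 1.28 ± 0.21. No array detected it under restriction, where its groups overlapped, and no WT array under the high-fat diet (at least 1.54-fold). All 3 other probes of Slc11a1 were measured in the injection arm and higher in Csb over the strata, by 0.59 ± 0.12, 0.45 ± 0.09 and 0.78 ± 0.12 (limma adjusted p = 0.00745, 0.00921 and 0.000460). Unlike the member probe, ILMN_2674884 (0.40, limma adjusted p = 0.0177) and ILMN_2983516 (0.47, limma adjusted p = 0.00726) were also higher in old mice. On the diets 2 of these 3 were measured. Between genotypes ILMN_2983516 differed by 0.52 ± 0.14, 0.61 ± 0.14, 0.44 ± 0.14 and 0.46 ± 0.14 in the diet order used above, and ILMN_2674884 by 0.05 ± 0.17, 0.57 ± 0.17, 0.23 ± 0.17 and 0.24 ± 0.16. No WT high-fat array detected the latter, so its 0.57 stands for at least 1.13-fold. The other Vapb probe, ILMN_2506144, did not differ by genotype past its error in the injection arm (0.10 ± 0.17) and was lower in old mice (-0.69 ± 0.17, limma adjusted p = 0.00403). On the diets it ran from -0.07 ± 0.29 on the standard diet to 0.65 ± 0.29 under restriction, where the member probe showed 0.73 ± 0.16. C4b, Pam, Hmox1 and Fn3krp have 1 probe each.

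**Figure D5:**
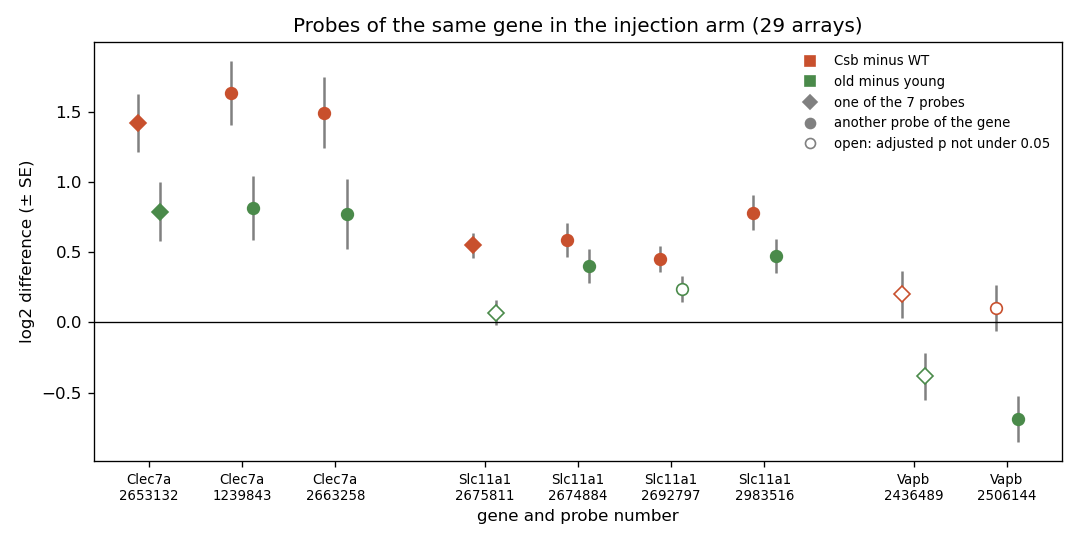
Log2 difference in the injection arm (± SE) between genotypes and between ages for the probes of Clec7a, Slc11a1 and Vapb; diamonds are 3 of the 7 probes, circles other probes of the same gene, and open symbols did not reach an adjusted p under 0.05. All Clec7a and Slc11a1 probes are higher in Csb (0.45 to 1.63), and the Vapb probes are not called by genotype.

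Within groups, the 7 probes varied largely apart. Correlations of array deviations from group means over the 21 pairs ran from -0.24 to 0.58 with a median of 0.03 across the 42 diet arrays, the highest being Vapb with Hmox1. Across the 29 injection arrays they ran from -0.18 to 0.64 with a median of 0.26, and without young Csb NR replicate 2 the median was 0.06. Clec7a with C4b read 0.38 with that array and -0.16 without it. These are descriptions, and probes of an array share its RNA and its normalization.

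The probes most like the members over the 16 group means (both arms normalized together) were ILMN_2625280 (Grb14), with r = 0.966 to Pam, and ILMN_3006219 (Fyb), with r = 0.957 to C4b. Within groups, over 71 arrays, these read 0.44 and 0.44. Fyb encodes an adaptor protein of blood cells, and Grb14 an adaptor of insulin receptor signalling. The group means share arms, normalization and the genotype difference by which the members were chosen.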

How the data were processed

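Cerebellum RNA was read on 71 arrays. The deposited table gives an average intensity per probe and array on a linear scale, not normalized per the file headers, and beside it the authors deposited a detection p-value. The authors' processed values, deposited as a score, equalled a z-score of the log intensity per array to within 5e-10. The submitters' processing notes list GenomeStudio 1.9.0.

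The arms were handled apart, using limma 3.58.1 under R 4.3.3: neqc (normexp background from detection p-values, quantile normalization, offset 16), then lmFit and eBayes on all 8 groups, with Benjamini-Hochberg adjustment over all probes kept and a two-sided threshold of 0.05. Probes were kept if detected (p under 0.01) on at least 4 diet or 3 injection arrays, leaving 14883 and 13948; all 7 members passed in both arms. Where no array of the dimmer group detected a probe, the fold is a lower bound against the higher of its level and the lowest detected level, and log2 differences, printed as fitted, are then not exact. Such a bound allows for detection only, not for the spread between arrays. The number of arrays limits precision. The scripts were tested on simulated data.

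The array's annotation table named 1 gene for 23978 of 25697 probes, none for 1719 and several for 0. Named are all 7 members, the 2 probes most like a member, and 1 on each side of the threshold; others were singled out after their values were seen. Members and lists were chosen with earlier results of these data known. Alternatives tried were no background correction, a z-score per array, no filter, array weights, a replicate block, background or brightness as covariate, both arms together, the authors' values, fits of 2 groups, leaving out each array and, chosen after seeing the data, leaving out 4 diet arrays low in Pcp2. Chip and scan date are not stated.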

Additional observations from a re-analysis of the deposited data

Results flagged for a closer look

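In a group of 4 to 10 arrays, a value was marked when its gap to the next array took an unusually large share of the group's range. This was asked of 84 combinations of probe and group and marked 3, and chance marks about 1 in 20. Clec7a on Csb caloric restriction replicate 6 was the lowest of its group at 5.78, with the next array at 6.50, and it is among the arrays low in Pcp2. Hmox1 on Csb high-fat diet replicate 7 was lowest at 5.25, with the next at 5.85. C4b on Csb resveratrol replicate 3 was lowest at 9.42, with the next at 9.91.

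The genotype difference of Fn3krp differed between old and young mice by 2.98 ± 0.53 (adjusted p = 0.0204, limma), with the probe higher in Csb in old and lower in young mice. The call was lost under several alternatives, and age cannot be told apart from any handling that followed the order of the sample numbers.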

How the results depend on the processing

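No value changed its direction among the results that were called. Over 9 alternative settings Clec7a, Slc11a1 and C4b were called higher in Csb over the injection strata in each, and 3 or 4 members were called (Pam joined with no background correction, array weights, both arms normalized together and the authors' values, adjusted p by limma from 0.00194 to 0.0411). Probes called by genotype numbered 156, and 797 with array weights and 239 with both arms together; 58.2% of the 797 were higher, against 85.3% of the 156. Leaving out each array gave 109 to 234 probes and 3 to 4 members. By stratum, probes called (main 7, 2, 32 and 8 in young saline, young NR, old saline and old NR) were 76, 170, 240 and 1236 with array weights and 51, 9, 132 and 377 with both arms together. With no filter they were 4 and 1 in young saline and young NR, with the replicate block 4 in young saline, with background as covariate 1 in young NR, and with only the 2 groups in the fit 51 in young saline and 10 in old saline. Members called higher by stratum (main 0 in each) were 2, 3, 4 and 2 with array weights, 2, 0, 4 and 1 with both arms together, and in old saline 2 with no background correction, 1 with a z-score and 2 with the authors' values; with only the 2 groups they were 2 in young saline and 1 in old saline. Fn3krp was called lower in young NR (1 member) with array weights and with only the 2 groups. Leaving out each array gave 3 to 41, 0 to 31, 17 to 67 and 5 to 839 probes and at most 2, 2, 2 and 1 members. The cause was not tested.

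For age, probes called (main 3231) were 5763 with array weights, 1571 with background and 93 with brightness as covariate; members called higher (main 2) were 1 with background and 0 with brightness, and lower (main 1) 2 with array weights or both arms together and 0 with brightness. Leaving out each array gave 2518 to 3477 probes, 2 to 3 members higher and 1 to 2 lower. For NR (main 4) probes were 2 with no background correction, the block or the authors' values, 8 with array weights and 7 with both arms together, and 2 to 5 leaving out each array. For genotype by age (main 5) they were 3 with no filter or the block, 327 with array weights, 2 with background as covariate and 9 with both arms together, and members 0 with no filter, the block or background; leaving out each array gave 3 to 9 probes and 0 to 1 members. For genotype by NR (main 2) they were 4, 9, 4 and 1 with no filter, array weights, both arms together and the authors' values, and 1 to 5 leaving out each array; members stayed at 0.

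On the diets, differences of Clec7a, Hmox1 and Fn3krp were smaller without background correction (Clec7a on the standard diet 0.82) and with the authors' values (0.87). Leaving out the 4 diet arrays low in Pcp2 turned no difference, but the arrays left had served to choose the probes, so this gives no separate support. In the injection arm the replicate numbers follow the text order of the sample names. They therefore could not show or exclude a pairing or a batch. Same-numbered arrays correlated at a mean of 0.03 over 90 pairs and others at -0.01 over 276. Of 29 arrays, 10 correlated best with their own number. With the replicate block 148 probes and 3 members were called by genotype. Dim probes (Clec7a in WT, Hmox1) limit what their folds can show.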
